A study of Homo sapiens with 3 samples.

Results

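The protein arginine methyltransferases and TDRD3 were followed across 3 gene expression arrays of HCT116 cells, a line of colorectal cancer cells, after knockdown of SMARCA4, the ATPase of the SWI/SNF chromatin remodelling complex. The members were all probes of the array, controls left out, whose listed gene name was PRMT1, PRMT2, PRMT3, CARM1, PRMT5, PRMT6, PRMT7, PRMT8, PRMT9 or TDRD3. PRMT10, the older name of PRMT9, was not used as a gene name on this array. These 10 genes had 16 of the 58201 probes, and 14 of the 16, from 9 genes, stood well above background on 1 or more arrays. The exceptions were the PRMT8 probe and 1 of the 2 TDRD3 probes.

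Arginine methyltransferases pass methyl groups from S-adenosylmethionine to the guanidino nitrogens of arginine. Type I enzymes make asymmetric dimethylarginine, type II enzymes make symmetric dimethylarginine and the type III enzyme stops at monomethylarginine. The marks lie on histone tails and on many RNA-binding proteins, where proteins with a Tudor domain such as TDRD3 can read them.

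SMARCA4-KD1 and SMARCA4-KD2 were HCT116 cells transfected with siRNA against SMARCA4, and NC was the control of the same experiment. Each condition was 1 array, so no difference between a knockdown and NC has a replicate check, and with bulk RNA fewer cells of a type and less RNA per cell cannot be told apart. The labels name a pair of siRNAs against SMARCA4 but do not say which of them, or whether both, went into each knockdown, and do not describe the control oligonucleotide.

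Intensity was the scanner software's background-subtracted Cy3 signal in arbitrary units, and log2 fold changes were taken after each array was divided by its own 75th percentile. Between 45.7% and 47.3% of the probes on an array were well above background. Both knockdown arrays came from 1 slide and 1 scan and the NC array from another slide and scan, so slide and condition cannot be told apart. The treatment field of the records names PRMT1 and their titles name SMARCA4, and the SMARCA4 probe read 3960 on the SMARCA4-KD1 array, 4129 on the SMARCA4-KD2 array and 14026 on the NC array, with log2 fold changes of -1.91 and -1.80. The keratin gene KRT18, a marker of epithelial cells, read 107417, 101900 and 102144, whereas the colorectal markers CEACAM5 and VIL1 were not well above background on any array. Of 8 markers of other cell types 5 were measured, and their summed scaled level was 4.83, 4.92 and 3.67 in SMARCA4-KD1, SMARCA4-KD2 and NC. ACTA2, an actin of smooth muscle and myofibroblasts, had log2 fold changes of 0.51 and 0.86, whereas those of PTPRC were 0.01 and -0.36 and those of CD14 -0.05 and -0.25. Of the 8, CD3E, PECAM1 and COL1A2 were not well above background on any array, and the part of other cells in the results was not tested.

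CARM1, PRMT5 and PRMT6 stood out from NC in both knockdowns. PRMT6 was 3.33-fold and 3.58-fold higher, CARM1 2.02-fold and 1.90-fold higher, and PRMT5 1.78-fold and 1.77-fold higher in SMARCA4-KD1 and SMARCA4-KD2. PRMT3 lay just under the 1.5-fold threshold that the study's methods use, PRMT1 was at most 1.29-fold higher, and PRMT2, PRMT9 and TDRD3 were at most 1.21-fold from NC on their brightest probes. By the brightest probe of each gene, PRMT7 was the only one of the 9 below NC in both knockdowns, by 1.40-fold and 1.32-fold.

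Of the 9 measured genes, 3 were at least 1.5-fold higher in SMARCA4-KD1, where 11.2% of all 22619 measured genes were, and 3 in SMARCA4-KD2, where 10.1% were. The same 3, CARM1, PRMT5 and PRMT6, were higher in both, beside 6.35% of all genes. No member was at least 1.5-fold lower in SMARCA4-KD1, beside 12.3% of all genes, in SMARCA4-KD2, beside 9.74%, or in both, beside 8.03%. The median log2 fold change over the 9 members was 0.27 for SMARCA4-KD1 and 0.37 for SMARCA4-KD2, against -0.0038 and 0.02 over all genes. The 2 knockdowns share their NC array, so a deviation of that array would enter both comparisons.

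**Figure D1:**
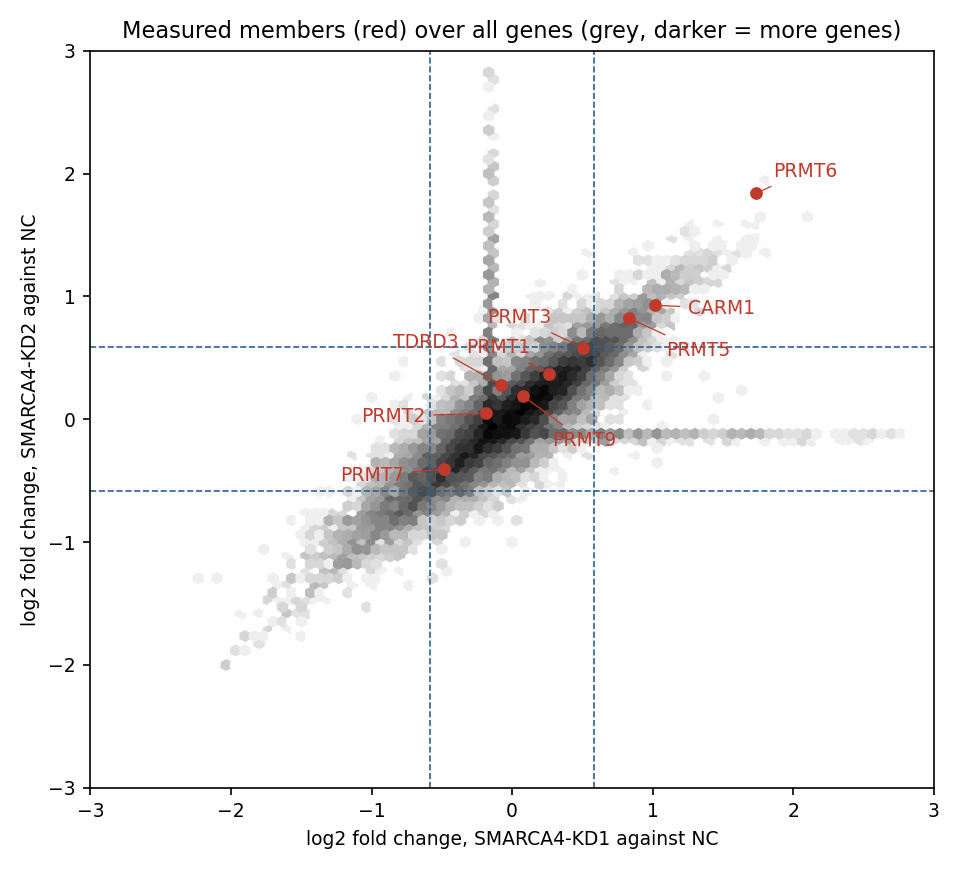
Log2 fold change against NC in SMARCA4-KD1 (horizontal axis) and SMARCA4-KD2 (vertical axis) for the 9 measured members (red points) over all 22619 genes (grey hexagons, darker where more genes lie), with dashed lines at 1.5-fold; 62 genes beyond 3 on either axis are not drawn. CARM1, PRMT5 and PRMT6 lie in the upper right beyond both lines, PRMT6 near the edge of the cloud, while the thin grey arms are genes set to the background floor on the arrays where they were dim, none of them a member.

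The labels do not say whether the 2 knockdown arrays came from separate cultures, and any spread between them may be technical. By each gene's brightest probe, SMARCA4-KD1 minus SMARCA4-KD2 was at most 0.11 in size on the log2 scale for PRMT1, PRMT3, CARM1, PRMT5, PRMT6, PRMT7 and PRMT9, and reached -0.23 for PRMT2 and -0.36 for TDRD3. On the 2 dimmer PRMT7 probes it was 0.50 and 0.30. The median size of this difference over all genes was 0.13. limma's fit of both knockdowns against NC takes its error from the spread between the knockdown arrays alone. Each gene has 1 residual degree of freedom, and its error is moderated toward a trend with intensity over all genes. In this fit the adjusted p stayed above 0.05 for every member and the call was made for 0% of the 22619 genes. At an unadjusted p under 0.05 the fit listed 7143 genes, 31.6%, and 6 of the 9 members, PRMT1, PRMT3, CARM1, PRMT5, PRMT6 and PRMT7. The adjusted p from limma was 0.0675 for CARM1, PRMT5 and PRMT6, the smallest value the fit gave to any gene. A t-test on the same values, with both knockdowns as 1 group, also passed 0 genes after Benjamini-Hochberg adjustment, with 3230 under an unadjusted 0.05. It is called the methods' t-test below, but the study's array methods name no test and the study lists genes for each knockdown by itself.

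**Figure D2:**
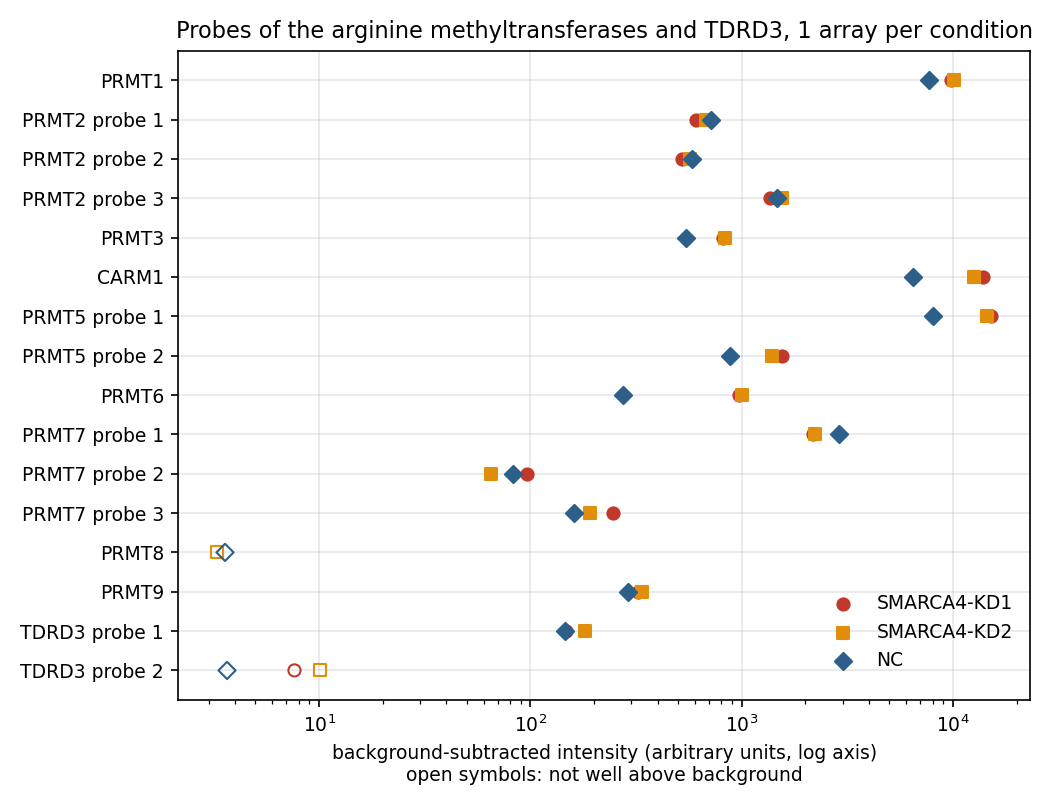
Background-subtracted intensity (horizontal log axis, arbitrary units) of each member probe on the SMARCA4-KD1, SMARCA4-KD2 and NC arrays, with open symbols where a probe was not well above background; the PRMT8 spot of SMARCA4-KD1 was an outlier and has no value. Symbols can be compared along a row only, and NC lies to the left of both knockdowns for PRMT1, PRMT3, CARM1, both PRMT5 probes, PRMT6, PRMT7 probe 3, PRMT9 and both TDRD3 probes, by the widest gap among the probes well above background for PRMT6. The intensities are not scaled between arrays. After scaling, the measured TDRD3 probe was not above NC in SMARCA4-KD1, with a log2 fold change of -0.08.

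PRMT6, a nuclear type I enzyme that methylates the tail of histone H3, had the widest gap. Its probe lies on chromosome 1 at 107601422 to 107601481 on the plus strand (hg19, as all probe positions here), and the opening 30 of its 60 bases are shown because the largest difference in the family rests on this probe.
PRMT6 chr1:107601422-107601451: ctctctcatttggagggatcatgtgagttg
The array carries this probe in 10 spots, and the mean intensity was 973 on the SMARCA4-KD1 array, 1008 on the SMARCA4-KD2 array and 275 on the NC array. Both knockdown arrays were high and the NC array was low. The 10 spots ran from 948 to 1002 for SMARCA4-KD1, from 968 to 1037 for SMARCA4-KD2 and from 249 to 290 for NC, so the spots of either knockdown did not overlap those of NC, though repeat spots measure the array and not the cells. The log2 fold changes were 1.74 and 1.84, with an error of 0.21 each from the scanner software's error model, which sets a fraction of 0.1 of the signal on every value. By the smaller of its 2 fold changes PRMT6 ranked 30th among the 22619 genes.

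CARM1, a type I coactivator enzyme that methylates histone H3 and transcription cofactors, had 1 probe on the plus strand of chromosome 19 at 11033280 to 11033339, of which the opening 30 of 60 bases are given.
CARM1 chr19:11033280-11033309: acgttaggcctgagtagctcccctccatcc
Its intensity was 13807 on the SMARCA4-KD1 array, 12524 on the SMARCA4-KD2 array and 6439 on the NC array, again high in both knockdowns and low in NC. The log2 fold changes were 1.01 and 0.93 with a scanner error of 0.20 each. None of the 3 reading frames of the full probe was free of a stop codon. CARM1 and the knocked-down gene are neighbours: their probes lie 139 kb apart on chromosome 19, with 2 protein-coding genes, YIPF2 and TIMM29, between them in the RefSeq gene order.

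PRMT3, a cytosolic type I enzyme whose best known substrate is the ribosomal protein RPS2, had 1 probe at 20529950 to 20530009 on chromosome 11. It read 817 on the SMARCA4-KD1 array, 830 on the SMARCA4-KD2 array and 543 on the NC array, so both knockdowns were above NC. The log2 fold changes were 0.50 and 0.58, the latter just short of the 1.5-fold threshold at 0.585. The brightest of 3 RPS2 probes read 258408, 265135 and 239776, and log2 fold changes over the 3 ran from -0.15 to 0.25 without reaching 1.5-fold.

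PRMT1, the enzyme behind most asymmetric dimethylarginine of mammalian cells, including that on histone H4, read 9801 on the SMARCA4-KD1 array, 10147 on the SMARCA4-KD2 array and 7683 on the NC array. NC was the lowest of the 3 arrays. The log2 fold changes of 0.27 and 0.37 were 1.30 and 1.81 times their scanner error of 0.20. The probe's 60 bases span 1115 bases of chromosome 19, from 50188248 to 50189362, and so cross a splice junction.

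PRMT2, a type I family member with an SH3 domain that acts as a nuclear receptor coactivator, was covered by 3 probes on chromosome 21, and no array stood apart. The brightest probe read 1366, 1547 and 1463 in SMARCA4-KD1, SMARCA4-KD2 and NC, with NC between the knockdowns. The other probes read 607, 676 and 712, and 519, 571 and 585, with NC the highest on both. Log2 fold changes over the 3 probes ran from -0.32 to -0.18 in SMARCA4-KD1 and from -0.11 to 0.05 in SMARCA4-KD2, so SMARCA4-KD1 was the lower knockdown on each probe.

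PRMT8, a type I enzyme of the plasma membrane that is best known from brain, was not well above background on the SMARCA4-KD2 or NC array. Its probe read 3.29 in SMARCA4-KD2 and 3.59 in NC, and its spot on the SMARCA4-KD1 array was an outlier and was left out, so no fold is given.

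PRMT5, the main type II enzyme, which makes symmetric dimethylarginine on histones and spliceosomal Sm proteins, was covered by 2 probes 3.62 kb apart on the minus strand of chromosome 14. Both are shown because they are separate measurements of 1 transcript with the same direction.
PRMT5 probe 1, chr14:23390168-23390227: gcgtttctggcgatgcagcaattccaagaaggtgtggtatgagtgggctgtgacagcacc
PRMT5 probe 2, chr14:23393848-23393907: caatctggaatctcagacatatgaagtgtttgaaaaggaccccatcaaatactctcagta
Probe 1 read 15135 on the SMARCA4-KD1 array, 14494 on the SMARCA4-KD2 array and 8013 on the NC array. Probe 2 read 1557, 1389 and 877 on the same arrays. On both, the knockdown arrays were high and NC was low. Log2 fold changes were 0.83 and 0.82 on probe 1 and 0.74 and 0.63 on probe 2, each at least 3.09 times its scanner error.

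PRMT9, the other type II enzyme, which methylates the splicing factor SF3B2, read 323 on the SMARCA4-KD1 array, 336 on the SMARCA4-KD2 array and 289 on the NC array. The log2 fold changes of 0.08 and 0.19 were within their scanner error of 0.21. SF3B2 itself read 8067, 8166 and 7734, with log2 fold changes of -0.03 and 0.05.

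PRMT7, the type III enzyme, had 3 probes on chromosome 16 that did not move alike. The 2 probes that the array's design assigns to the same RefSeq transcript are shown, since they differ in SMARCA4-KD1, and the second of them crosses a splice junction, with 60 bases spread over 723 bases of the genome.
PRMT7 probe 1, chr16:68391062-68391121: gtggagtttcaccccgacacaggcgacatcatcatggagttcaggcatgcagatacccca
PRMT7 probe 2, chr16:68381576-68382298: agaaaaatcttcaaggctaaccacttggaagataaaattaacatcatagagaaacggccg
Probe 1, the brightest, read 2179 on the SMARCA4-KD1 array, 2218 on the SMARCA4-KD2 array and 2871 on the NC array, so NC was the highest array, with log2 fold changes of -0.48 and -0.40. Probe 2 read 96.2, 65.4 and 83.0, with NC between the knockdowns and log2 fold changes of 0.13 and -0.38. Probe 3, designed to an Ensembl transcript of the gene, read 246, 192 and 160, with NC the lowest array and log2 fold changes of 0.53 and 0.23. The direction of PRMT7 therefore depended on the probe, and with the mean over its probes the log2 fold changes were 0.06 and -0.18.

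**Figure D3:**
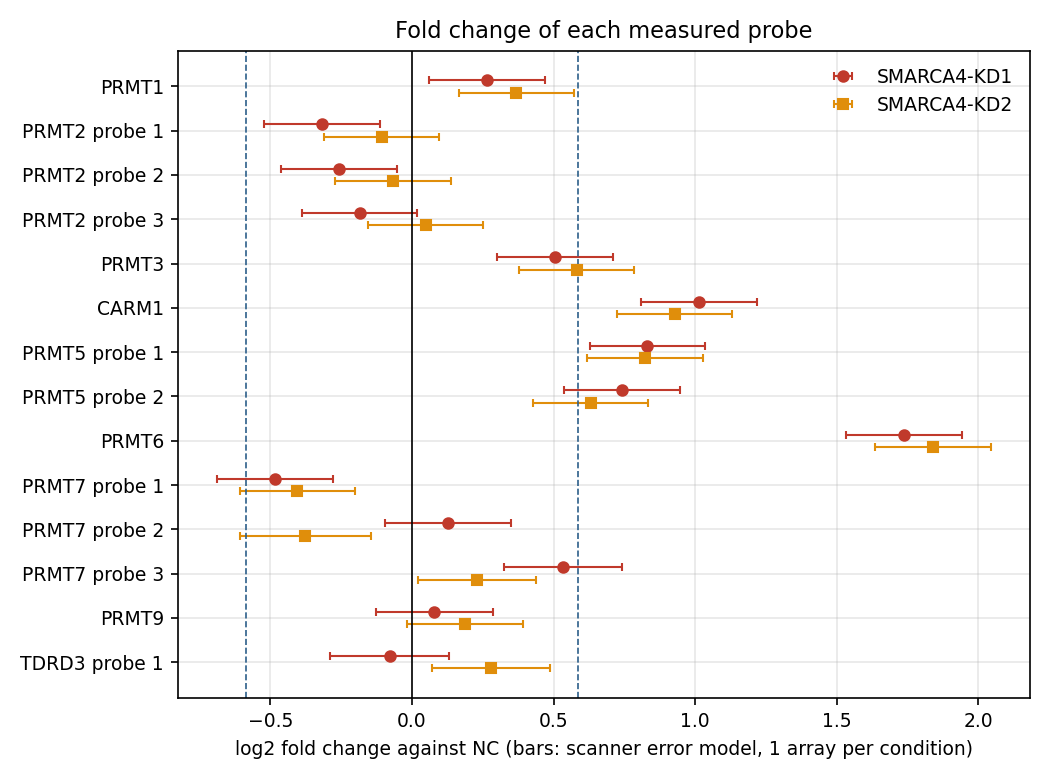
Log2 fold change against NC of the 14 measured member probes in SMARCA4-KD1 and SMARCA4-KD2, with bars for the scanner software's error of each fold change and dashed lines at 1.5-fold. The CARM1, PRMT6 and both PRMT5 probes lie beyond the upper line in both knockdowns, and the 3 PRMT7 probes lie on different sides of 0.

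TDRD3, the Tudor-domain reader of asymmetric dimethylarginine that holds topoisomerase TOP3B, had 1 measured probe, on chromosome 13. It read 147 on the SMARCA4-KD1 array, 181 on the SMARCA4-KD2 array and 146 on the NC array, so SMARCA4-KD1 and NC were alike and SMARCA4-KD2 was higher. The log2 fold changes were -0.08 and 0.28 with a scanner error of 0.21 each. The other TDRD3 probe read 7.65, 10.1 and 3.67, not well above background on any array. TOP3B, the DNA and RNA topoisomerase of the complex, read 323, 354 and 281, with log2 fold changes of 0.12 and 0.30.

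The genes around the enzymes were taken from 6 lists of partners, readers, methyl donor enzymes, deiminases and turnover enzymes, substrates, and methyltransferases of other families, with 54 measured genes. Of these, 1 was at least 1.5-fold higher in both knockdowns, 1.85% beside 6.35% of all genes, and 5 were at least 1.5-fold lower, 9.26% beside 8.03% of all genes.

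None of the 6 measured PRMT partners and regulators reached 1.5-fold in both knockdowns. WDR77, the obligate partner of PRMT5, read 1674, 1515 and 1561 in SMARCA4-KD1, SMARCA4-KD2 and NC, each a mean of 10 spots. Its log2 fold changes were 0.01 and -0.08, so that WDR77 stayed near NC where both PRMT5 probes were higher. RIOK1, an adaptor that brings substrates to PRMT5, had log2 fold changes of 0.53 and 0.54, and the list's medians were 0.04 and -0.03.

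Of 7 measured methyl donor genes, MAT2A was higher and MTR lower in both knockdowns. MAT2A, which makes S-adenosylmethionine in cells outside the liver, read 12239 on the SMARCA4-KD1 array, 12102 on the SMARCA4-KD2 array and 7082 on the NC array on its brighter probe, with log2 fold changes of 0.70 and 0.74. Its other probe read 1628, 1566 and 733, with log2 fold changes of 1.07 and 1.06. MTR, the methionine synthase, read 536, 547 and 1166 on its brightest probe, with log2 fold changes of -1.21 and -1.12. A dimmer MTR probe, well above background on every array, had -0.88 and -0.50, short of 1.5-fold in SMARCA4-KD2. NC was therefore the lowest array for MAT2A and the highest for MTR. AHCY, which clears the S-adenosylhomocysteine that methyltransferases leave, had log2 fold changes of 0.42 in both knockdowns, and the list's medians were 0.21 and 0.09.

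Of the 11 measured TDRD3 partners and other methylarginine readers, TDRD7, a Tudor-domain protein of RNA granules, was lower, with 1335, 1318 and 1949 as the mean of 10 spots and log2 fold changes of -0.63 and -0.60. The list's medians were 0.20 and 0.26, with 8 of 11 genes, among them the nearly identical SMN1 and SMN2, above NC in both knockdowns, beside 41.1% of all genes. Of the 4 measured deiminase and turnover genes, PADI2, which converts peptidyl arginine to citrulline, read 51.9, 48.8 and 88.0, with log2 fold changes of -0.85 and -0.88. The other PADI2 probe was not well above background on any array. JMJD6 had log2 fold changes of -0.64 and -0.47, whereas DDAH1 had 0.52 and 0.46 and DDAH2 had 0.38 and 0.42. The medians of these 4 were -0.13 and -0.02.

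By brightest probe, 2 of the 24 measured substrates, both RNA-binding proteins, were 1.5-fold or more lower in both knockdowns, beside 8.03% of all genes. None was higher, beside 6.35%, and the medians were 0.04 and 0.08. A dimmer EWSR1 probe, at -0.80 and -0.72, and a dimmer HNRNPK probe, at -0.65 and -0.62, were also past 1.5-fold lower. The brightest probes of EWSR1 and HNRNPK were not, and the remaining EWSR1 probe, well above background on every array, was at 0.03 and 0.09. TAF15 read 5904 on the SMARCA4-KD1 array, 6674 on the SMARCA4-KD2 array and 11531 on the NC array, with log2 fold changes of -1.05 and -0.82. HNRNPA2B1 read 12994, 14619 and 32240 on its brightest probe, with log2 fold changes of -1.40 and -1.17. NC was the highest array for both. METTL23 and NDUFAF7, arginine methyltransferases outside the PRMT family, had log2 fold changes of 0.27 and 0.30, and of 0.32 and 0.23, with list medians of 0.30 and 0.26.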

How the data were processed

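Total RNA of HCT116 cells was labelled with Cy3 and hybridised to 3 Agilent human gene expression arrays with 60-base probes (hg19 positions in the file headers), 1 per condition. The authors scanned the arrays, and per the file headers Agilent Feature Extraction 10.7.1.1 gave the deposited background-subtracted intensity of each spot, with no normalization between arrays. A deposited series-level table held the same intensities, within 0.1% for the 15 single-spot member probes, and served as an alternative. Control and outlier spots were left out, repeat spots were averaged, and log2 intensity was centred on each array's 75th percentile. A probe was kept if any array showed it well above background, dimmer values were set to the array's lowest such level, and each gene took its brightest probe. Calls used 1.5-fold, without a test. limma 3.58.1 (R 4.3.3) fitted both knockdowns against NC and was tested on simulated data with 200 of 22619 genes changed. There, fold calls found 91 of 100 genes changed 2-fold and 98 of 100 changed 4-fold, limma called 0, and 539 unchanged genes passed 1.5-fold. The simulated noise was the spread between the knockdown arrays, shuffled over genes, without a difference between slides. The 539 therefore does not measure the rate in the real arrays. Alternatives were quantile and normexp (offset 50) normalization, the 75th percentile over probes well above background on every array, and changes of filter and floor. The mean over probes and a 2-fold threshold were also used. The text names every member, list genes past 1.5-fold alike in both knockdowns, and WDR77, TOP3B and MAT2A. RIOK1, AHCY, JMJD6, DDAH1, DDAH2, RPS2, SF3B2, EWSR1, HNRNPK, METTL23, NDUFAF7 and the genes between CARM1 and SMARCA4 were chosen after their values were seen. Members and lists were chosen with earlier results of these data known. The number of arrays limits the precision. Protein sequences, exon annotation and the arrays of a PRMT1 knockdown were not used here, and some items are not reported here.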

Additional observations from a re-analysis of the deposited data

How the results depend on the processing

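CARM1, PRMT5 and PRMT6 exceeded NC by 1.5-fold or more in both knockdowns under all 9 settings of scaling, background, filter, floor and probe choice. The filter and floor settings could not change member fold changes, since each member's brightest probe was well above background on every array. The mean over probes could not change CARM1 and PRMT6, which have 1 probe each. PRMT3 passed in SMARCA4-KD2 under normexp only, which made 4 members there, with a log2 fold change of 0.61. With each probe counted by itself 4 probes passed in each knockdown. At 2-fold, 2 members passed in SMARCA4-KD1, 1 in SMARCA4-KD2 and 1, PRMT6, in both. Of 144 alternative member fold changes 142 moved by less than the scanner error, with those that could not move counted among them. The exceptions were the PRMT7 values under the mean over probes, 0.06 and -0.18. The count of genes that limma called at an adjusted p of 0.05 was 0, also without a trend, by the mean over probes and by the methods' t-test. It was 2475 after quantile normalization, 3709 with normexp, 1598 with the percentile over probes well above background, 5176 of 19503 with the filter on all arrays, 30934 of 43299 with no filter, 3360 with no floor and 3731 from the series-level table, and CARM1, PRMT5 and PRMT6 were among those called in each of these 7. At an unadjusted p under 0.05 it was 7143, and 434 genes passed the methods' t-test at p under 0.01 with 1.5-fold. The cause of the spread between these counts was not tested. Other members were called too: PRMT3 and PRMT7 in some of the 7 settings, and PRMT1 with no filter. PRMT7 was lower than NC on its brightest probe. With no filter the median of all genes moved to -0.15 and -0.14. No paired analysis was possible because each condition is 1 array. Leaving out a knockdown array leaves limma no residual degree of freedom, and the single knockdown values above stand in its place. NC cannot be left out, and dim probes such as PRMT8 gave no value.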

Other observations

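The measured genes described here, which lie near SMARCA4 and CARM1 on chromosome 19 in the RefSeq gene order, did not share the difference seen for CARM1. YIPF2, a membrane protein of the Golgi that lies between them, read 2738 on the SMARCA4-KD1 array, 3143 on the SMARCA4-KD2 array and 2455 on the NC array, with log2 fold changes of 0.07 and 0.32. TIMM29, a subunit of the mitochondrial inner membrane import machinery listed on the array under its older name C19orf52, read 1628, 1622 and 1536, with log2 fold changes of -0.0016 and 0.05. On the far side of CARM1, DNM2, a dynamin, had log2 fold changes of 0.01 and -0.04 and TMED1, a cargo receptor, -0.19 and -0.30, and C19orf38 was not well above background on any array. Past SMARCA4, SPC24, a kinetochore subunit, had log2 fold changes of -0.90 and -0.94 and KANK2 of -0.65 and -0.60. Not every gene of the region is reported here. These genes were chosen for their position after the CARM1 value was seen, and each value rests on 1 array per condition.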
